A study of Mus musculus with 7 samples.

Results

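The bone morphogenetic proteins (BMPs) and activins are secreted ligands of the TGF-β superfamily, and their activity outside the cell is set by secreted antagonists that bind them. The 10 genes described here are the BMP ligand genes *Bmp2*, *Bmp3*, *Bmp4*, *Bmp6* and *Bmp7*, the activin subunit genes *Inhba* and *Inhbb*, and the antagonist genes *Fst*, *Nog* and *Grem1*. They were chosen by symbol, with the measured difference between genotypes in these same libraries already known, so their fold changes and calls are given as a description and not as independent evidence about the family. All 10 were found among the 47729 genes of the count table, and all 10 passed the filter on low values (10 counts or more in 3 libraries or more), as did 19684 genes in all, which were tested. RNA came from whole forebrain of 15-day-old mice on an F1(C57BL/6 X 129Sv) background. Control mice were *Lhx6*+/- and mutant mice *Lhx6*-/-, both with the Lhx6tm2Vpa null allele, so that the controls also carry a mutant copy. *Lhx6* encodes a LIM homeodomain transcription factor of interneurons born in the medial ganglionic eminence (MGE), and the allele is not restricted to a cell type. The 4 control and 3 mutant libraries each held RNA pooled from 2 animals, and errors are therefore spreads over pools.

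BMP ligands are dimers that bind type I and type II serine/threonine kinase receptors, whose activation leads to phosphorylation of SMAD1, SMAD5 and SMAD9 and to transcription of targets such as the *Id* genes. Activins are dimers of the β subunits encoded by *Inhba* and *Inhbb*, and act mainly through SMAD2 and SMAD3. Follistatin, the product of *Fst*, binds activins and, less tightly, some BMPs, whereas noggin (*Nog*) and gremlin (*Grem1*) bind BMPs. In the brain these pathways are known for dorsal patterning, for the choice between glial and neuronal fates and, in the case of activin, for induction by neuronal activity.

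Libraries held between 32556304 and 38069151 expected counts. *Lhx6* had between 476 and 615 normalized counts (counts scaled to a common library size) in the control libraries and between 70.1 and 76.6 in the mutant libraries; the gene was low in every library labelled mutant. A list of 7 genes that mark forebrain identity had a summed CPM, a library-size-scaled count, of 345 to 396 in controls and between 341 and 390 in mutants. None of the 7 was at 0, and 1, *Lhx2*, was called lower. The columns of the table name a genotype and a library number (2, 3, 10 and 11 for controls and 5, 12 and 13 for mutants). Across all genes, the first principal component set libraries 2, 3 and 5 apart from libraries 10 to 13, so changes are also given within these runs of numbers. The labels do not say what the numbers stand for. RNA integrity numbers, listed per sample from 9 to 10, and sex could not be assigned to the columns.

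Because no protein sequences were used here, the genes are shown by the DNA in front of their start sites. RefSeq promoter sequences (GRCm38.p6) were at hand for 5 of the 10 genes, *Bmp4*, *Bmp6*, *Inhba*, *Inhbb* and *Grem1*. The 250 bases before the start are printed for the activin subunit pair, whose transcripts lay on opposite sides of the controls in the mutants, and for *Grem1*, the only one of the 5 that held a searched motif; capitals mark that motif.

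Inhba, chr13:16011601-16011850, plus strand: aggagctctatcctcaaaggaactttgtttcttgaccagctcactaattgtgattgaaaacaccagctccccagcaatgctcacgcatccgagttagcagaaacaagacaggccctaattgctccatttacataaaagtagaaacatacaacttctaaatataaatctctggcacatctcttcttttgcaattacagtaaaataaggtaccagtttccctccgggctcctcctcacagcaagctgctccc

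Inhbb, chr1:119422249-119422498, minus strand: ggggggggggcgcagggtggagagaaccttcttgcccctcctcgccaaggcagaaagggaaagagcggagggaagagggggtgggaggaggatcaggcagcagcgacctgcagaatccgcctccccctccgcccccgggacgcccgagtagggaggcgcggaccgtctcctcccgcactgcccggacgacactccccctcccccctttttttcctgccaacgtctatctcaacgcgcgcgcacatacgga

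Grem1, chr2:113758649-113758898, minus strand: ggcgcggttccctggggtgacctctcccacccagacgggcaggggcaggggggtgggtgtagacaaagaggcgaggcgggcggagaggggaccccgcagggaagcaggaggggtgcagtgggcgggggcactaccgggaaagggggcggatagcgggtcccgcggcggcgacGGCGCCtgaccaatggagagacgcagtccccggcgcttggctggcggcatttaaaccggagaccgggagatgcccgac

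In these windows, G and C made up 43.2% of the bases before *Inhba*, 68% before *Inhbb* and 72% before *Grem1*. Windows from 250 bases before to 50 bases after the start were searched on both strands for the cAMP response element TGACGTCA and its core TGACG, the AP-1 site TGAGTCA, the SMAD palindrome GTCTAGAC, the homeodomain site TAATTA and the core of the BMP response element, GGCGCC. The core TGACG is contained in TGACGTCA. GGCGCC was present in the *Grem1* window and in 11.9% of all 32851 windows. None of the other motifs was present in the 5 windows; TGACG occurred in 20.8%, TAATTA in 5.29%, TGAGTCA in 5.20%, TGACGTCA in 1.79% and GTCTAGAC in 0.213% of all windows. A match or its absence describes the letters of these windows only.

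In *Lhx6* mutant forebrains, *Inhba*, *Bmp3* and *Bmp2* transcripts rose and *Nog* transcripts fell. *Inhba* had 4.34 times, *Bmp3* 2.53 times and *Bmp2* 1.82 times the control mean, while *Nog* was at 46.4% of it. The means of *Inhbb* and *Fst* stood at 60.3% and 185% of the control mean without passing the test, and *Bmp4*, *Bmp6*, *Bmp7* and *Grem1* overlapped between genotypes. By the quasi-likelihood test of edgeR, adjusted after Benjamini and Hochberg over all tested genes with a threshold of 0.05, 3 of the 10 genes were called higher, beside 2.97% of all tested genes, and 1 was called lower, beside 1.87%. In either direction the background was 4.85%. In 4 genes all mutant libraries lay above all control libraries, which held for 10.7% of tested genes, and in 2 they lay below, which held for 9.00%. DESeq2 called 6 of the 10 genes, beside 8.80% of the genes it tested, and edgeR with a covariate for the run of numbers also called 6, beside 11.2%; in both, *Inhbb* and *Fst* were the additions. Since these values were known when the genes were chosen, nothing is read from the counts. The median log2 fold change was 0.10 over the 10 genes and -0.013 over all tested genes. In RNA from whole tissue, fewer cells of a type and less RNA per cell cannot be told apart.

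**Figure D1:**
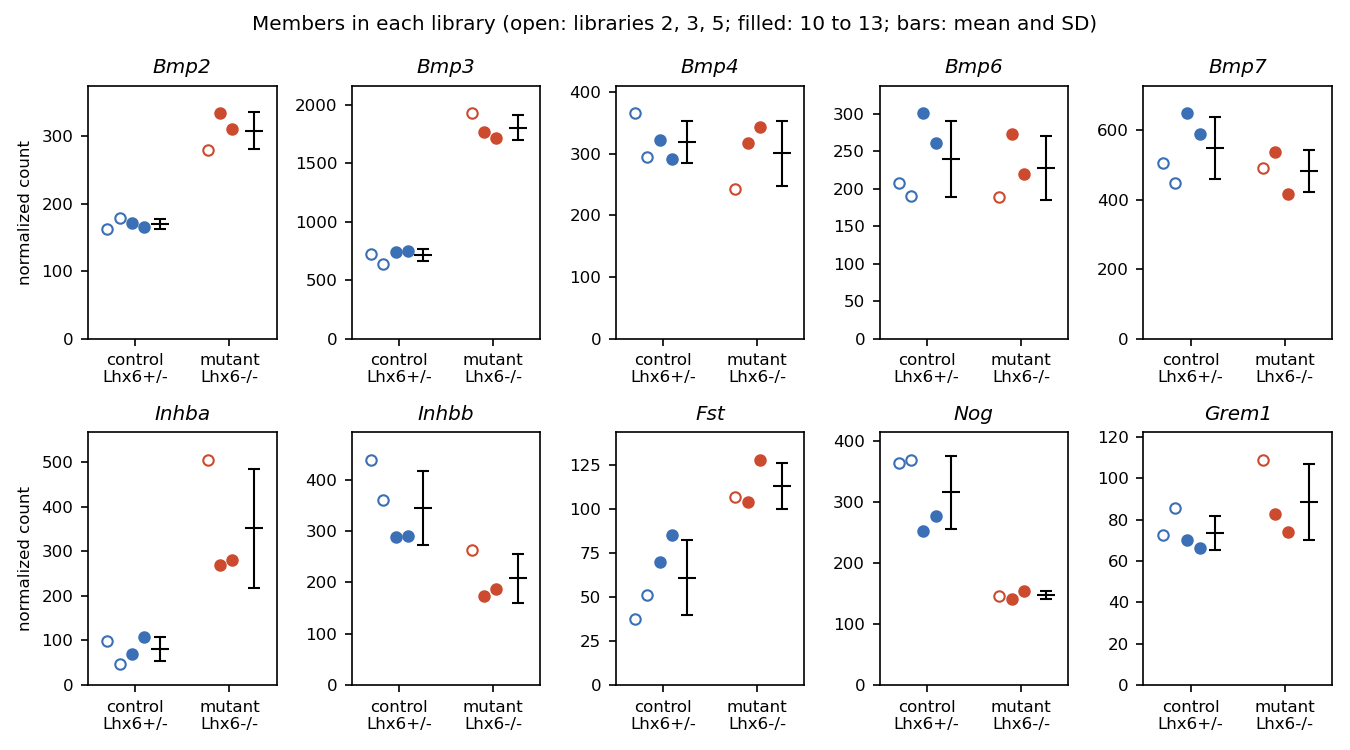
Normalized counts of the 10 genes in each library, by genotype; open points are libraries 2, 3 and 5, filled points libraries 10 to 13, and bars are the mean and SD over 4 control or 3 mutant pools. The mutant points of *Bmp2*, *Bmp3*, *Inhba* and *Fst* all lie above the control points, those of *Nog* and *Inhbb* all lie below, and the other 4 genes overlap.

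Among the ligands, *Bmp3* (ENSMUSG00000029335, chr5:98854415-98884396 on GRCm38, plus strand) was the most abundant of the 10 genes by count. It encodes an atypical BMP that is known to oppose the action of other BMPs and activins. Control libraries 2, 3, 10 and 11 had 726, 641, 742 and 749 normalized counts of *Bmp3*, whereas mutant libraries 5, 12 and 13 had 1930, 1770 and 1718. Both groups were narrow and far apart: the lowest mutant library exceeded the highest control library by more than any control library differed from another. The means were 714 ± 50 and 1806 ± 111 (SD, n = 4 and 3 pools), giving a log2 fold change of 1.34 with a standard error (SE) of 0.0857 (edgeR adjusted p = 0.000226). Within libraries 2, 3 and 5 the log2 difference was 1.50, and within libraries 10 to 13 it was 1.22.

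*Bmp2* (ENSMUSG00000027358, chr2:133552159-133562885, plus strand) encodes a classical BMP that signals through the SMAD1, SMAD5 and SMAD9 branch. The controls, in the same order, had 162, 179, 171 and 165 normalized counts and the mutants 279, 334 and 310. Its controls were the tightest of the family, with a coefficient of variation of 4.34%, below the 7.75% that counting error alone gives at this depth. The means were 169 ± 7.34 and 308 ± 27.8 (SD, n = 4 and 3 pools), giving a log2 fold change of 0.86 with an SE of 0.114 (edgeR adjusted p = 0.00499), with 0.70 and 0.93 within the runs. *Bmp2* lies on the chromosome of *Lhx6*, 97.4 Mb away, as do *Grem1* at 77.6 Mb and *Bmp7* at 137 Mb.

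*Bmp4* (ENSMUSG00000021835, chr14:46383520-46390669, minus strand), the closest relative of *Bmp2*, encodes a ligand of the same branch. Its control libraries had 366, 295, 323 and 291 normalized counts and its mutant libraries 242, 317 and 343. The mutant libraries held both the lowest value and one above 3 of the controls, so the groups overlapped. The log2 fold change was -0.08 (95% interval -0.43 to 0.26), and its sign differed between the runs, at -0.44 and 0.10. In the adult and juvenile brain *Bmp4* marks newly committed oligodendrocytes. A list of 8 markers of oligodendrocyte precursors and committed precursors summed to 749 to 1056 CPM in controls and 977 to 1039 in mutants, with 1 of the 8 (*Vcan*) called higher, whereas 8 markers of mature oligodendrocytes summed to 6586 to 8482 and to 4719 to 5808, with 3 of the 8 (*Mbp*, *Mag* and *Cnp*) called lower. Over 4.00% of its exon length *Bmp4* shares bases with *Gm15217* on the other strand, and reads of the 2 genes there cannot be told apart where counting ignores strand.

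*Bmp6* (ENSMUSG00000039004, chr13:38345716-38499728, plus strand) and *Bmp7* (ENSMUSG00000008999, chr2:172868012-172940321, minus strand) encode related ligands that use the same receptors and are known from meninges and choroid plexus as well as from neural cells. *Bmp6* had 207, 190, 301 and 261 normalized counts in controls and 189, 273 and 220 in mutants. *Bmp7* had 507, 449, 650 and 591 in controls and 491, 538 and 417 in mutants. For both genes the pairs of control libraries differed more than the genotypes did over all libraries. Libraries 2 and 3 minus libraries 10 and 11 gave a log2 difference of -0.50 for *Bmp6* and -0.38 for *Bmp7*. The genotype difference was -0.08 for *Bmp6* (95% interval -0.53 to 0.37) and -0.19 for *Bmp7* (95% interval -0.54 to 0.16). Within the runs it was -0.07 and -0.19 for *Bmp6*. For *Bmp7* its sign differed between the runs, at 0.04 and -0.39. Summed over 14 markers of meningeal and perivascular fibroblasts, the control libraries had 347, 388, 540 and 513 CPM and the mutant libraries 374, 464 and 410. Of this sum 55.1% was *Cldn11*, which myelinating cells also express; the other 13 markers gave 161, 165, 221 and 181 in controls and 234, 217 and 186 in mutants. Summed over 10 markers of choroid plexus epithelium, the control libraries had 367, 202, 304 and 379 CPM and the mutant libraries 157, 329 and 256. Of this sum 60% was *Ttr*. The other 9 markers gave 108, 82, 117 and 140 in controls and 101, 132 and 118 in mutants. The part of either tissue in *Bmp6* and *Bmp7* was not tested.

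The activin subunit genes lay on opposite sides of the controls in the mutants. *Inhba* (ENSMUSG00000041324, chr13:16011851-16027211, plus strand) encodes the βA subunit, which forms activin A. Its control libraries had 99.8, 48.2, 69.1 and 107 normalized counts and its mutant libraries 506, 269 and 280. The groups were far apart although both were wide: library 5 stood well above the other mutants, and the controls varied by 33.7%, beside 11.3% from counting error alone. The means were 80.9 ± 27.3 and 352 ± 134 (SD, n = 4 and 3 pools), giving a log2 fold change of 2.12 with an SE of 0.316 (edgeR adjusted p = 0.00782). Split by run, it was 2.83 in libraries 2, 3 and 5, where library 5 was the lone mutant, and 1.65 in libraries 10 to 13. In a list of 16 activity-induced genes, 8 were called higher, among them *Bdnf*, *Npas4* and *Nptx2*, beside 2.97% of all tested genes. None was called lower and 8 were not called. The direction was mixed: 6 of the 16 had negative log2 fold changes, among them *Egr1* (-0.30), *Egr2* (-0.42) and *Junb* (-0.36). The 16 genes summed to between 1260 and 1416 CPM in controls. In mutant libraries 5, 12 and 13 they summed to 2622, 2788 and 2128 CPM. Whether *Inhba* moved with them was not tested.

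*Inhbb* (ENSMUSG00000037035, chr1:119415465-119422248, minus strand) encodes the βB subunit of activin B. It had 439, 361, 288 and 291 normalized counts in controls and 262, 174 and 187 in mutants. No mutant library reached the lowest control, but the gap between them was small beside the spread of the controls, and within each genotype libraries 2, 3 and 5 were higher than libraries 10 to 13. The means were 344 ± 71.3 and 208 ± 47.2 (SD, n = 4 and 3 pools), giving a log2 fold change of -0.73 (95% interval -1.19 to -0.27, edgeR adjusted p = 0.0860). Within the runs the differences were alike, at -0.60 and -0.67. With the run as a covariate the adjusted p was 0.00633, in libraries 10 to 13 alone 0.0119 and with DESeq2 0.0111.

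*Fst* (ENSMUSG00000021765, chr13:114452262-114458730, minus strand) had few counts, from 34 to 135 reads in a library. Its normalized counts were 37.3, 51.2, 70.0 and 85.4 in controls and 107, 104 and 128 in mutants. All mutant libraries lay above all controls, and in controls libraries 10 and 11 exceeded libraries 2 and 3. The means were 61.0 ± 21.1 and 113 ± 13.1 (SD, n = 4 and 3 pools), giving a log2 fold change of 0.89 (95% interval 0.27 to 1.50, edgeR adjusted p = 0.114). Split by run, it was 1.26 in libraries 2, 3 and 5 and 0.56 in libraries 10 to 13. The adjusted p was 0.0355 with the run as a covariate and 0.0372 with DESeq2.

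*Nog* (ENSMUSG00000048616, chr11:89300638-89302332, minus strand) encodes noggin, which blocks the receptor-binding faces of BMPs. Its control libraries had 365, 370, 253 and 278 normalized counts and its mutant libraries 146, 141 and 154. The mutants were nearly level, with a coefficient of variation of 4.68%, while the controls formed a higher pair (libraries 2 and 3) and a lower pair (libraries 10 and 11). The means were 317 ± 59.5 and 147 ± 6.88 (SD, n = 4 and 3 pools), giving a log2 fold change of -1.11 with an SE of 0.166 (edgeR adjusted p = 0.00800). The differences within the runs were -1.32 and -0.84. Markers of interneurons born in the MGE, a list of 7 that includes *Lhx6* itself, summed to 404 to 449 CPM in controls and 212 to 240 in mutants, with *Lhx6*, *Sst* and *Pvalb* among the genes called lower; their part in the fall of *Nog* was not tested.

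*Grem1* (ENSMUSG00000074934, chr2:113746164-113758646, minus strand) encodes a BMP antagonist of the DAN family. It had 72.4, 85.4, 70.0 and 66.1 normalized counts in controls and 109, 82.8 and 73.9 in mutants. Mutant libraries 12 and 13 lay inside the range of the controls, and library 5 stood above it. The log2 fold change was 0.27 (95% interval -0.17 to 0.71, edgeR adjusted p = 0.539).

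Counts of different genes were compared per kilobase of exon, since longer transcripts yield more reads. In controls *Nog* had the highest level, at 187 ± 35.1 normalized counts per kb, followed by *Bmp4* (143 ± 15.6), *Bmp7* (137 ± 22.2), *Bmp6* (99.5 ± 21.1), *Bmp3* (96.6 ± 6.76), *Inhbb* (80.9 ± 16.7), *Bmp2* (47.6 ± 2.07), *Inhba* (40.9 ± 13.8), *Fst* (26.1 ± 9.02) and *Grem1* (17.7 ± 2.01; SD, n = 4 pools each). Of the 9 neighbouring pairs in this order, only *Inhbb* and *Bmp2* did not overlap over the control libraries. In mutants *Bmp3* had the highest mean, at 244 ± 15.0 normalized counts per kb (SD, n = 3 pools). Next came *Inhba*, which was eighth in controls, at 178 ± 67.4; its libraries overlapped those of *Bmp3*. *Nog*, first in controls, had 86.7 ± 4.06 in mutants and could not be set apart from *Bmp2* at 86.5 ± 7.83. Of the 9 neighbouring pairs in the order of the mutant means, 2 did not overlap over the mutant libraries, *Bmp2* above *Inhbb* and *Fst* above *Grem1*. *Inhbb* and *Fst* overlapped there, at 48.8 ± 11.1 and 48.3 ± 5.60.

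**Figure D2:**
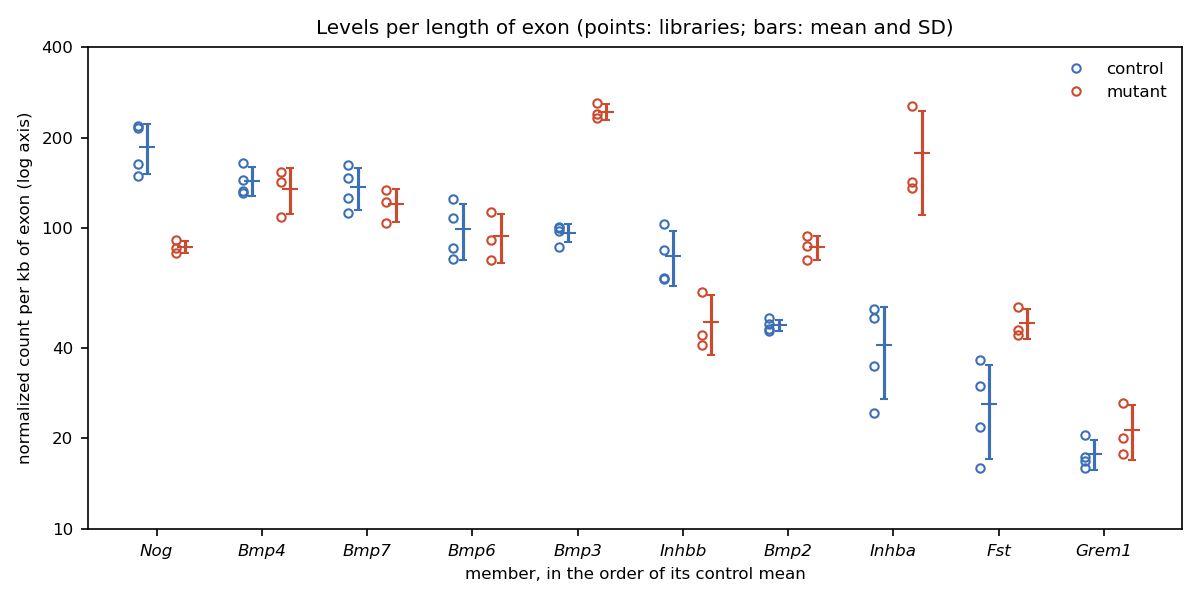
Normalized counts per kb of exon on a log axis for each gene, ordered by its control mean; points are libraries (blue, 4 controls; red, 3 mutants) and bars are the mean and SD. *Nog* leads the order in controls at 187, and *Bmp3* has the highest mean in mutants, at 244, with libraries that overlap those of *Inhba*.

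Set against each other within each library, the members differed in balance. Of the summed level per kb of the 5 BMP ligands, *Bmp3* supplied 18.9%, 18.8%, 17.3% and 19.0% in the controls (libraries 2, 3, 10 and 11) and 40.2%, 33.1% and 34.7% in the mutants (libraries 5, 12 and 13). Without *Bmp3*, the summed level of *Bmp2*, *Bmp4*, *Bmp6* and *Bmp7* overlapped between genotypes, at 427 ± 43.8 and 436 ± 47.9 normalized counts per kb (SD, n = 4 and 3 pools). The ratio of *Bmp2* to *Bmp4* was between 0.277 and 0.379 in controls and between 0.565 and 0.720 in mutants. *Nog* stood at 51.0%, 58.4%, 31.1% and 38.0% of that sum in controls and at 22.1%, 17.2% and 20.9% in mutants, with no overlap.

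For the activin subunits, *Inhba* made up 32.8%, 22.3%, 34.0% and 44.1% of the summed level per kb of *Inhba* and *Inhbb* in controls and 80.6%, 76.9% and 76.3% in mutants. The predominant subunit transcript was therefore *Inhbb* in every control library and *Inhba* in every mutant library. Their sum was 122 ± 22.6 normalized counts per kb in controls and 226 ± 78.5 in mutants (SD, n = 4 and 3 pools). The ratio of *Fst* to this sum was 0.224 ± 0.0917 in controls and 0.230 ± 0.0770 in mutants, and overlapped. These ratios are built from the values the genes were chosen with and were not tested. They compare transcripts, not proteins.

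**Figure D3:**
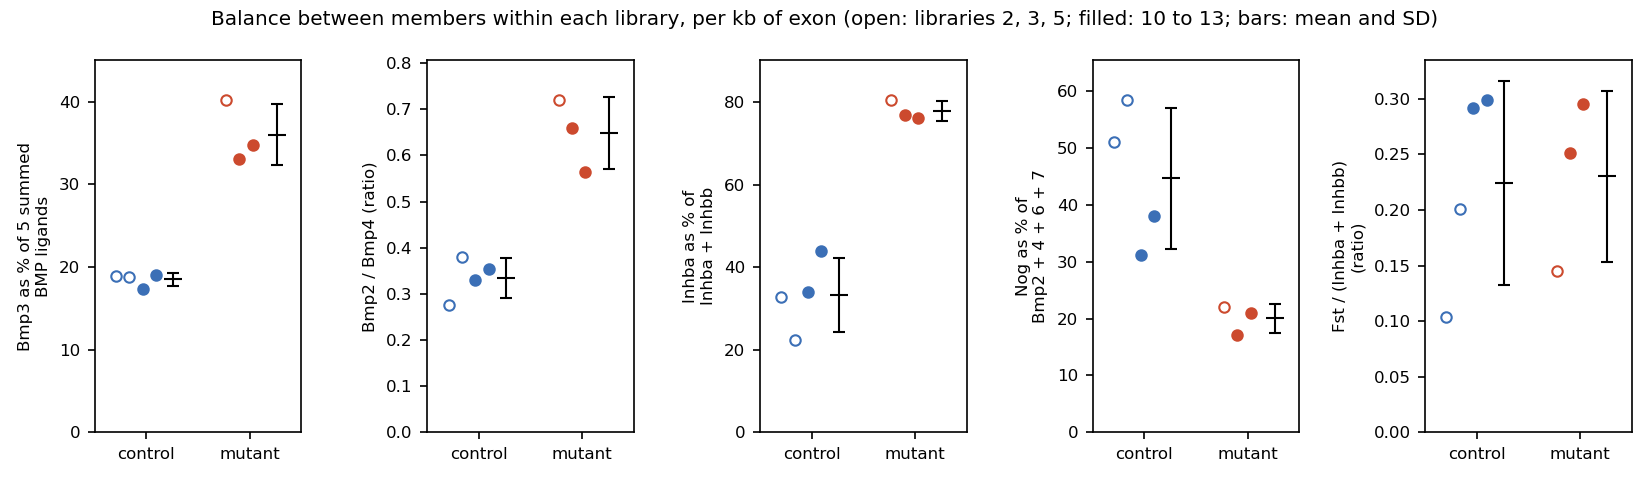
Balance between members within each library, from levels per kb of exon; open points are libraries 2, 3 and 5, filled points libraries 10 to 13, and bars are the mean and SD (4 control and 3 mutant pools). The share of *Bmp3*, the ratio of *Bmp2* to *Bmp4*, the share of *Inhba* and the level of *Nog* relative to BMP ligands do not overlap between genotypes, while the ratio of *Fst* to the activin subunits does.

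After the genotype means were taken out, the log2 CPM of *Bmp3* and *Inhba* still varied in the same direction over the 7 libraries (r = 0.87), as did those of *Bmp6* and *Bmp7* (r = 0.82). *Bmp7* and *Nog* (r = -0.90), *Bmp6* and *Nog* (r = -0.84), *Bmp6* and *Inhbb* (r = -0.84) and *Bmp2* and *Inhba* (r = -0.88) varied in opposite directions. These are 6 of 45 pairs, picked for their size after the values were seen, and the points share depth and the run of library numbers. Over all 7 libraries with the genotype difference kept, the genes most like *Bmp3* among 15761 others of at least 1 CPM were *Sorcs3* (r = 0.998), *Stat4* (r = 0.997) and *Tgfbi* (r = 0.996), all called higher in mutants. The genes most like *Bmp7* were *Cbx2* (r = 0.956), *Ptgds* (r = 0.949) and *Pdcd7* (r = 0.946). For *Bmp4* they were *Slc16a4* (r = 0.963), *Rsph3a* (r = 0.946) and *Rftn2* (r = 0.936). With 7 libraries many genes reach such values; 138 genes had a rank correlation with *Bmp3* as high as that of *Sorcs3*.

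The rest of the pathway was examined in 5 lists written from the known roles of genes. Of 26 other ligands of the BMP, activin and TGF-β family, 20 were tested, 1 rose and 1 fell, and the median log2 fold change was 0.03. *Gdf10*, also known as *Bmp3b* and the closest relative of *Bmp3*, rose from 458, 383, 396 and 390 normalized counts in controls to 1015, 844 and 820 in mutants, giving a log2 fold change of 1.13 with an SE of 0.115 (edgeR adjusted p = 0.00139). *Lefty1*, which encodes an inhibitor of Nodal, fell from 79.6 ± 25.8 normalized counts to 22.2 ± 5.30 (SD, n = 4 and 3 pools; log2 fold change -1.84, edgeR adjusted p = 0.0146). The call of *Lefty1* was lost without mutant library 5, 12 or 13, where its adjusted p was 0.0595, 0.0599 and 0.0556. *Inha*, whose product joins the β subunits to form inhibins in place of activins, had 858 normalized counts in controls and 697 in mutants (log2 fold change -0.30, edgeR adjusted p = 0.240).

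Of 30 other antagonists, modulators and processing enzymes, 27 were tested and 1 was called. *Rgma*, a BMP co-receptor and the most abundant of the list by count, though not per kb, had a log2 fold change of -0.04 (95% interval -0.30 to 0.23). The list's median was 0.16. DESeq2 called 4 of its genes, and edgeR with the run as a covariate called 8.

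All 14 receptors were tested, and 2 rose. *Bmpr1b*, a type I BMP receptor, went from 689 ± 61.0 to 924 ± 40.5 normalized counts (log2 fold change 0.42, edgeR adjusted p = 0.0445), and *Tgfbr2*, the type II receptor of TGF-β, from 795 ± 58.9 to 1079 ± 32.4 (log2 fold change 0.44, edgeR adjusted p = 0.0244; SD, n = 4 and 3 pools). Both calls were fragile. That of *Bmpr1b* was lost whichever of the 7 libraries was left out, with an adjusted p of up to 0.197 without library 13, and that of *Tgfbr2* in 5 of the 7 fits, without library 2, 5, 10, 12 or 13, with up to 0.127. The median of the list was 0.19.

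Of 14 SMADs and their regulators, none was called by edgeR, DESeq2 or limma-voom. In edgeR 5 had an unadjusted p of 0.05 or less, as did 3590 of the 19684 tested genes. The fit with the run as a covariate called 2 of the 14, and libraries 10 to 13 alone called 3. *Ski* and *Skil*, repressors of SMAD-driven transcription, were the most abundant of the list by count, though *Skil* was not per kb. Their log2 fold changes were 0.06 (95% interval -0.15 to 0.27) and 0.31 (95% interval 0.10 to 0.53). *Skil* was called when control library 3 was left out (edgeR adjusted p = 0.0202), and not in the 6 other fits that left out a library. It was also called by edgeR with the run as a covariate (adjusted p = 0.0435) and in libraries 10 to 13 alone (adjusted p = 0.0128). The median of the list was 0.12.

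Of 16 genes known as transcriptional targets of BMP and activin signalling, of which *Smad6*, *Smad7*, *Skil* and *Bambi* also stand in the lists above, 2 were called higher and none lower, and 13 had a positive log2 fold change, with a median of 0.52. Both called genes encode inhibitors of basic helix-loop-helix factors. *Id3* had 985, 804, 862 and 807 normalized counts in controls and 2085, 1792 and 1909 in mutants, giving a log2 fold change of 1.16 with an SE of 0.0964 (edgeR adjusted p = 0.000659). *Id1* had 379, 387, 355 and 394 in controls and 654, 623 and 555 in mutants, giving a log2 fold change of 0.69 with an SE of 0.102 (edgeR adjusted p = 0.00771). Both stayed called in all 7 fits that left out a library. *Id2* and *Id4*, of the same family, had log2 fold changes of -0.08 and 0.28 and were not called. In 9 of the 16 targets all mutant libraries lay above all controls, beside 10.7% of all tested genes, and in none below, beside 9.00%. DESeq2 called 7 of the targets, beside 8.80% of the genes it tested. The fit with the run as a covariate called 8, beside 11.2%.

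*Id1* and *Id3* are also expressed by endothelial cells and astrocytes. Of 8 endothelial markers none was called by edgeR or limma-voom, and DESeq2 called 3. In edgeR 5 had an unadjusted p-value of 0.05 or less, as did 3590 of the 19684 tested genes. All 8 markers had positive log2 fold changes, with a median of 0.33. Their sum was between 380 and 416 CPM in controls and between 497 and 508 in mutants. Of 10 astrocyte markers 1 was called higher (*Gfap*), and their sum was between 6174 and 8855 CPM in controls and between 9660 and 11256 in mutants. The list's median log2 fold change was 0.19. *Slc1a2*, which was not called, made up 69.9% of the sum. The other 9 markers summed to between 2288 and 2560 CPM in controls and between 3133 and 3324 in mutants. Of these 9, *Gfap* had a log2 fold change of 1.95, and the others ran from -0.05 (*S100b*) to 0.59 (*Aqp4*). The part of these cells in the rise of *Id1* and *Id3* was not tested.

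**Figure D4:**
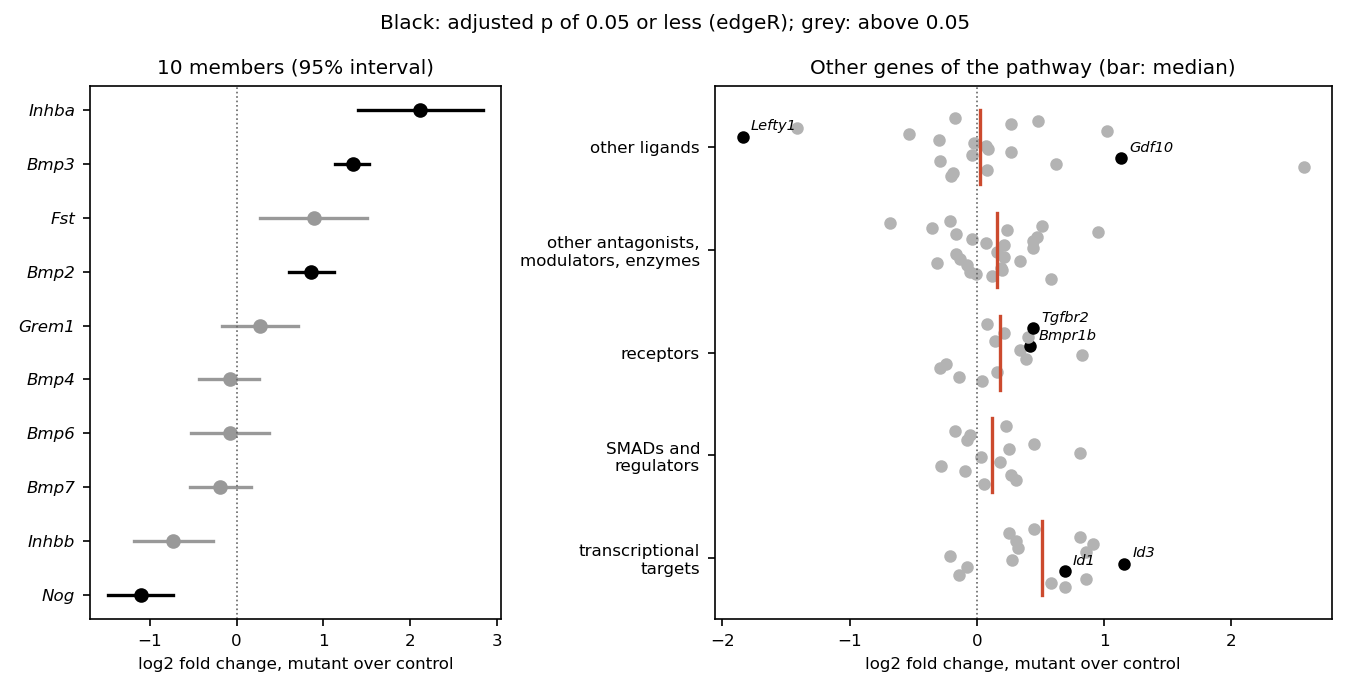
Log2 fold change of mutant over control, for the 10 members with their 95% interval (left) and for the tested genes of the 5 other pathway lists except 1 that is not reported here, with the median of each whole list as a bar (right); black marks an adjusted p-value of 0.05 or less in edgeR. *Inhba* at 2.12 and *Nog* at -1.11 are the ends of the members' range, and the target list has the highest median, at 0.52.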

How the data were processed

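Forebrain RNA of 4 *Lhx6*+/- and 3 *Lhx6*-/- pools, each of 2 mice, was sequenced as 36 bp single ends. Per the labels and the methods, the authors trimmed reads with cutadapt 1.9.1, aligned them with Bowtie2 2.2.9 to the Ensembl release 84 transcriptome (GRCm38) and deposited RSEM 1.2.31 expected counts per gene, not normalized. RSEM divides reads among genes that match them equally. Between 0% and 4.89% of the members' 36-base words occur in another gene. For *Inhba* and *Fst* the words (6318 and 4726) outnumber the annotated exon bases (1980 and 2337). These shares therefore do not measure how many reads RSEM had to divide. The authors also deposited their DESeq2 comparison, of which the gene symbols alone were used, and the exon annotation.

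Expected counts were rounded. Genes reaching 10 counts in 3 or more libraries entered edgeR 4.0.16 with TMM factors (quasi-likelihood F-test, genotype only, Benjamini-Hochberg, threshold 0.05) in R 4.3.3. The SE of a fold change was taken as its size divided by the root of F, and 95% intervals are not adjusted. DESeq2 1.42.0, limma-voom (limma 3.58.1), RLE factors, other filters, unrounded counts, a covariate for the run of library numbers, libraries 10 to 13 alone and each library left out were alternatives. Levels per kb use the union of exons. Differences within runs are differences of mean log2 CPM (prior count 2). The floor of detection, 3 counts, was at most 0.0921 CPM and covers counting error only. Libraries of a genotype differed by a chi-square per degree of freedom of 9.36 to 65.9, so each counted as 1 replicate. All count columns were used. Tests were tried on simulated counts.

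The members, lists and run grouping were chosen with earlier results of these data known. Named genes were all members and the called genes of each pathway list (at most 6), or else its genes of highest count, to make 2. The 3 genes most correlated with each of the 3 members of highest count were also named. *Inha*, *Id2* and *Id4* were named after their values were seen, as were markers. Some genes of the lists are not reported here by name. Marker sums without the most abundant gene of a list were added after the data were seen.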

Additional observations from a re-analysis of the deposited data

How the results depend on the processing

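Over 15 alternatives each, the log2 fold changes of the 10 genes kept their direction and their side of the threshold in 141 of 150 fits. *Bmp2*, *Bmp3*, *Inhba* and *Nog* stayed called in all 15, with a highest adjusted p of 0.0347, 0.00224, 0.0295 and 0.0455; the log2 fold change of *Inhba* ran from 1.65 to 2.28 and that of *Nog* from -1.20 to -0.84. *Inhbb* was gained in 3 fits and *Fst* in 2. Signs turned for *Bmp4*, at 0.11 in libraries 10 to 13 and 0.05 without library 5 (from -0.19 over single libraries left out), and for *Bmp6*, at 0.05 without library 10 and 0.04 without library 5 (from -0.23), none called. DESeq2 called 1731 genes, libraries 10 to 13 alone 1858 and the fit with the run as a covariate 2205, against 954; each called 2 members lower. In the same order they called 4, 3 and 4 other ligands, 4, 8 and 8 antagonists and modulators, 4, 4 and 5 receptors, 0, 3 and 2 SMADs and regulators, and 7, 6 and 8 targets. Limma-voom and the filter on all 7 libraries called 2 antagonists and modulators, and the fit without a filter called 1 receptor. The cause of these differences was not tested. With 1 library left out, 324 to 949 genes were called, the lowest without library 13, always 3 members higher and 1 lower, 1 to 2 other ligands, 1 antagonist, 0 to 1 receptors, 0 to 1 SMADs and 2 to 5 targets, the most without library 3. By the longest transcript, 8 of 10 genes kept their rank per kb (*Bmp3* and *Bmp6* changed places). By rank correlation 0, 0 and 2 of the 3 genes most like *Bmp3*, *Bmp7* and *Bmp4* stayed. No paired analysis was possible because the columns of the count table carry library numbers that match no replicate number of the labels. Low counts limit *Fst*, *Inhba* and *Grem1* most, with a counting error of 12.9%, 11.3% and 11.8% in a control library.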
